A study of Mus musculus with 22 samples.

Results

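Sirt1 is a gene for a protein deacetylase that uses NAD+ as a cofactor, and the comparison described here asks whether messenger RNA of mice labelled SIRT1 iKO differs from that of controls in the same way in colon and ileum at old age. The comparison is a difference of differences: the difference between SIRT1 iKO and Flox control mice in the colon, minus the same difference in the ileum. It was made over the 14 arrays of 24-month mice, chosen by sample title, of 22 arrays in the series. The groups were colon of iKO mice (n = 4), colon of flox mice (n = 3), ileum of iKO mice (n = 4) and ileum of flox mice (n = 3). All were male C57BL/6 mice on a chow diet with no other treatment. The flox mice are the controls in the labels, and iKO names the mutants. The labels used here do not spell iKO out, and they give neither the Cre driver nor the part of Sirt1 that was removed. They also do not say whether colon and ileum came from the same mice, or whether replicates were separate animals, so p-values measure the spread between these samples. The other 8 arrays, of young ileum, enter only where named.

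SIRT1 removes acetyl groups from histones and from transcription factors, and it is studied in the gut for its links to bile acid uptake, inflammation and renewal of the epithelium. The ileum takes up bile acids and carries lymphocytes within its epithelium, whereas the colon takes up salt and water under a thick layer of mucus. Both are lined by a single sheet of epithelial cells above connective tissue and smooth muscle, and total RNA of whole tissue holds all of these. In such RNA, fewer cells of a type and less RNA per cell cannot be told apart.

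Each array is 1 labelled RNA, and a level is the log2 signal of a gene's brightest probe minus the 75th percentile of its array, so a level of 0 is a bright gene. Differences are iKO minus flox in log2 units with their standard error (SE) from 1 limma fit of all 14 arrays, in which both tissues share 1 spread per gene. A gene was called at a Benjamini-Hochberg adjusted p under 0.05 over 19650 genes. Colon arrays had 70.4% to 79.7% of spots well above background and ileum arrays 49.8% to 61.5%. The lowest level still well above background lay between -6.69 and -5.88 on colon arrays and between -5.10 and -3.34 on ileum arrays, so dim genes could be followed further down in the colon. A difference of differences that rests on levels below background is therefore a fitted value and not a bound. Colon and ileum arrays lay on 4 slides each, so tissue and slide cannot be told apart. In the colon every flox array sat at 1 slide position and every iKO array at another, so genotype and position cannot be told apart there either. In the 24-month ileum, genotype and slide were largely confounded. Flox 1 and 4 shared slide 3, iKO 1 and 4 shared slide 4, and iKO 3 lay on slide 1. Slide 2 alone held both genotypes, as iKO 2 and flox 3.

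The labelled tissue was checked with markers of each. Fabp6, the ileal bile acid binding protein, was at 3.20 to 3.76 on the ileum arrays and at -4.89 to -2.55 on the colon arrays. Hoxb13, a homeobox gene of the hindgut, was well above background on all 7 colon arrays (2.12 to 4.06) and on no ileum array. A pair of ileum arrays nevertheless stood apart. Car1, a carbonic anhydrase of colonic surface cells, was at 7.79 on ileum iKO 2 and 8.18 on ileum flox 1, at -3.00 to -2.14 on the other 5 ileum arrays and at 8.17 to 8.74 in the colon. Aqp8, a water channel of the same cells, was at 5.57 on ileum iKO 2, 6.55 on ileum flox 1 and -5.04 to -2.08 on the other 5 ileum arrays. Colon arrays read 6.27 to 8.09 for Aqp8, and ileum iKO 2 lay below the colon range of both genes. Of 19 colonic markers measured, 7 were higher on both of these arrays than on each of the other 5, and 0 were lower on both. Fabp6 was at 3.6 on ileum iKO 2 and 3.20 on ileum flox 1, so both carried ileal genes as well. There was 1 such array in each genotype. Ileum iKO 2 is also the iKO array of the 1 ileum slide with both genotypes. Each within-slide ileum value below is therefore that array minus ileum flox 3. Results are given below with all 14 arrays and, where they move, without this pair, which leaves 3 iKO and 2 flox arrays of ileum. That setting was chosen after seeing the data.

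**Figure D1:**
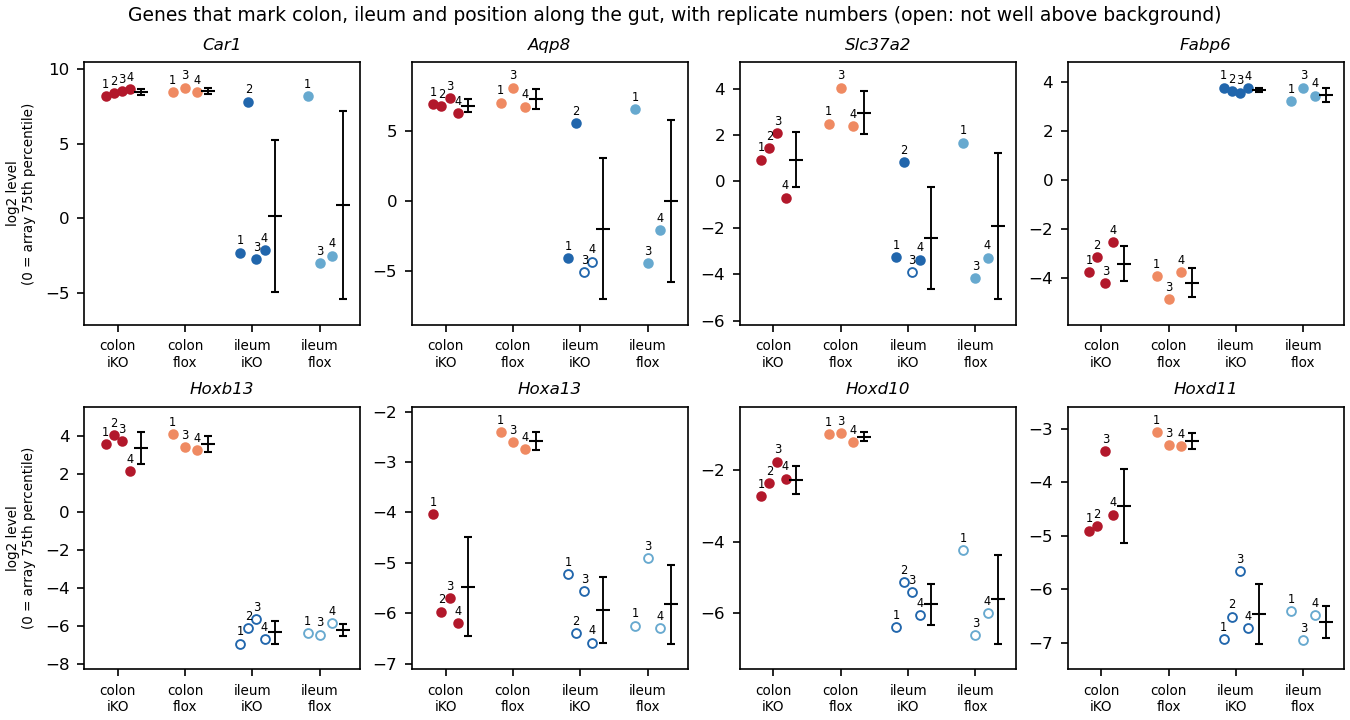
Levels (log2, 0 is the 75th percentile of the array) of 8 genes that mark colon, ileum or position along the gut on each 24-month array, in the order colon iKO, colon flox, ileum iKO, ileum flox, with replicate numbers beside the points and a bar for mean and SD. Ileum flox 1 reached colon levels of Car1 and Aqp8, and ileum iKO 2 lay below these but far above the other 5 ileum arrays. Both carried Fabp6 far above the colon arrays, while Hoxb13 was not well above background on any ileum array.

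Sirt1 itself was at 0.41, 0.59, 0.65 and 0.34 in colon of iKO mice, against 0.79, 0.79 and 0.76 in colon of flox mice. The ileum values were 0.28, 0.32, 0.30 and 0.39 in iKO mice, against 0.59, 1.09 and 0.78 in flox mice. The iKO values lay below all flox values in both tissues, at 82.1% of the flox level in the colon and 70.8% in the ileum. An exact two-sided permutation test gave p = 0.0571 in each tissue, the smallest that 4 arrays against 3 allow. The limma differences of -0.28 ± 0.12 in the colon (adjusted p = 0.575) and -0.50 ± 0.12 in the ileum (adjusted p = 0.115) were not called. The ileum value was called without ileum flox 1 (-0.61, adjusted p = 0.0367). The difference between tissues was not called (0.21 ± 0.16, adjusted p = 0.85), and its 95% interval of -0.14 to 0.57 leaves room for one as large as either tissue's own difference. With the dimmer of the 2 Sirt1 probes the differences were -0.13 in the colon and -0.10 in the ileum. Since the labels do not give the removed part, a probe outside it would check nothing.

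Across all genes, 69 were called in the colon (0.351% of 19650 tested), 54 higher (0.275%) and 15 lower (0.0763%) in iKO mice. In the ileum 49 were called (0.249%), 32 higher (0.163%) and 17 lower (0.0865%). At an unadjusted p under 0.05 there were 1481 genes in the colon (7.54%) and 2573 in the ileum (13.1%). The calls in both tissues in the same direction numbered 15 (0.0763%), of which 13 were higher (0.0662%) and 2 lower (0.0102%), and 0 genes were called in opposite directions. The difference of differences itself was called for 7 genes (0.0356%), 5 of them with the colon value above the ileum value (0.0254%) and 2 with it below (0.0102%), with 1181 at an unadjusted p under 0.05 (6.01%). Of these 7, Prom2 and Mt1 were also called in both tissues, 4 in the colon and not in the ileum, and 1 in neither. For 5 of the 7 the value rests on levels below background, and Tnni2 and Mt1 are the 2 measured on all 14 arrays. A further 50 genes were called in the colon and 34 in the ileum with no called difference between the tissues, and these are not shown to be particular to a tissue. Without the pair of ileum arrays that stood apart, the difference of differences was called for 10 genes, 4 of them among the 7. The others were 4933427E11Rik, Gm21814, NAP068884-1, Rdh16f2, Shisal2b and Ttc16, each called in the ileum and not in the colon. These calls rest on 2 flox ileum arrays, and levels against background are not given here.

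Values in the other tissue leaned the same way. Of the 54 genes higher in the colon, 46 had a positive difference in the ileum, where their median was 0.38 against 1.34 in the colon. The 15 lower genes had medians of -1.54 in the colon and -0.38 in the ileum, with 13 of 15 of the same sign. Of the 32 genes higher in the ileum, 27 were positive in the colon, with medians of 0.72 in the colon and 1.31 in the ileum, and 16 of the 17 lower ones were negative there. Over all 19650 genes the share of the same sign was 57.1% and the differences correlated weakly (Pearson r = 0.137, Spearman correlation 0.184). That correlation is over genes read on the same arrays, which are not independent replicates. Median differences over all genes were -0.01 in the colon and 0.02 in the ileum, and -0.03 for the difference of differences.

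**Figure D2:**
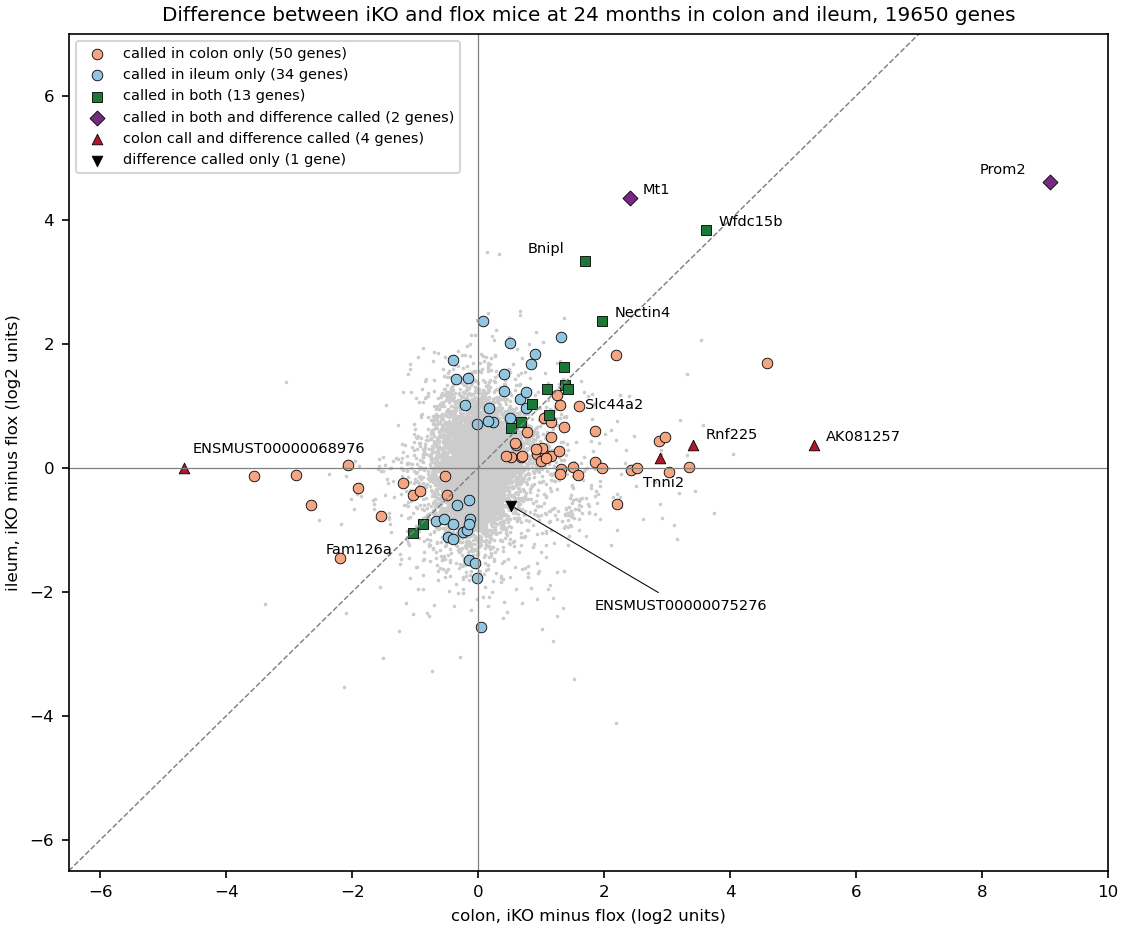
Difference iKO minus flox (log2 units) in the colon (x axis) and in the ileum (y axis) for each of 19650 genes at 24 months, with the dashed line where both are equal. The 13 genes called in both tissues with no called difference lie near the line, apart from Bnipl above it, Prom2 and Mt1 lie away from it on opposite sides, and the 4 genes called in the colon and in the difference of differences lie along the colon axis.

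Non-overlap of the groups was also counted, without a fit, and unlike the calls it was more frequent in the ileum than in the colon. Random labels of 4 arrays against 3 would on average give it for a share of 0.0571 of genes in each tissue. The 4 iKO and 3 flox arrays did not overlap for 1626 genes in the colon (8.27%) and 2548 in the ileum (13%). They overlapped in neither tissue, with the same direction in both, for 267 genes (1.36%), 183 of them higher in iKO mice in both (0.931%), and with opposite directions for 31 (0.158%). All 15 genes called in both tissues are among the 267.

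Mt1 encodes a metallothionein, a small cysteine-rich protein that binds zinc and copper and whose gene responds to metals and stress. Its level was 5.91, 5.96, 6.03 and 5.81 in colon of iKO mice, against 4.01, 3.06 and 3.47 in colon of flox mice. Ileum arrays read 7.72, 7.39, 7.72 and 7.48 in iKO mice, against 3.09, 3.30 and 3.29 in flox mice. Flox levels of the tissues lay close together, and iKO levels were higher in both tissues with a wide gap, widest in the ileum. Mt1 rose by 2.41 ± 0.18 in the colon (adjusted p = 7.01e-05) and by 4.35 ± 0.18 in the ileum (adjusted p = 3.27e-07). The difference of differences was -1.94 ± 0.25 (95% interval -2.49 to -1.39, adjusted p = 0.0249). A second probe, upstream of the first, gave 3.34 in the colon and 5.47 in the ileum, a difference of -2.14 (adjusted p = 0.181 with each probe tested alone). Within slides that held both genotypes Mt1 differed by 1.80 to 2.89 in the colon and by 4.09 on the 1 such ileum slide (iKO 2 minus flox 3). Both tissue calls were kept in all 29 alternatives. The difference between tissues lost its call without each of ileum flox 1, 3 and 4, ileum iKO 1, 3 and 4 and colon iKO 1, 2 and 4 (adjusted p = 0.0567 to 0.0943), and without the pair of ileum arrays that stood apart (-1.94, adjusted p = 0.0819). Testing dim probes as well ended the call (adjusted p = 0.0523), as did replicate number as a fixed block (adjusted p = 0.155 within genotype, 0.199 alone) and a fixed term for slide (-1.79, adjusted p = 0.5).

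The probes of Mt1 and of Prom2 are shown because the size of the tissue difference differs, or cannot be repeated, between probes of 1 gene. They are the first 30 of 60 bases of each probe, 5′ to 3′, in the array's own annotation (mouse build mm7), all in lower case since no part is singled out. The Mt1 probes lie on the plus strand at chr8:92769155-92769214 (A_51_P294979) and chr8:92768988-92769047 (A_52_P423810). The Prom2 probes lie on the minus strand at chr2:127268013-127268072 (A_52_P452667, annotated to transcript variant 2) and chr2:127273709-127275709 (A_51_P385928, annotated to variant 1, over an interval longer than the probe).
Mt1 A_51_P294979: cctgctgtcccgtgggctgctccaaatgtg
Mt1 A_52_P423810: aactggctctgagaaatgtcctttgcttcc
Prom2 A_52_P452667: ttatgaatgtacaagcaagttttgctgcta
Prom2 A_51_P385928: atgacctggataagcacctggatatcaaac

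Prom2 encodes prominin 2, a membrane protein of epithelial cell protrusions. Its level was 1.87, 2.33, 1.98 and 2.02 in colon of iKO mice, and -7.32, -6.92 and -6.84 in colon of flox mice, none of which was well above background. In the ileum it was -0.22, 0.07, -0.28 and -0.38 in iKO mice, and -4.60, -5.65 and -4.19 in flox mice, again with no flox array well above background. Every iKO array in both tissues thus carried Prom2 where no flox array had a measured level. The iKO mean was at least 344-fold higher than flox in the colon and at least 17.6-fold higher in the ileum, against the lowest signal well above background on each flox array or the probe's own where higher. The fitted differences were 9.08 ± 0.28 (adjusted p = 9.45e-09) and 4.61 ± 0.28 (adjusted p = 1.3e-05). Their difference of 4.47 ± 0.39 (adjusted p = 0.00121) rests on flox levels below background in both tissues, so it does not show that the sizes differ. With normexp background correction it was 3.17, from 6.36 in the colon and 3.19 in the ileum. The second probe gave 4.44 in the colon (adjusted p = 0.0292) and -0.36 in the ileum (adjusted p = 0.859), with each probe tested alone. Within slides Prom2 differed by 8.82 to 9.34 in the colon and by 5.72 in the ileum (iKO 2 minus flox 3).

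For the other 13 genes called in both tissues the difference between tissues was not called. Slc44a2, a choline transporter-like membrane protein, was at 0.54, 0.74, 0.62 and 0.56 in colon of iKO mice, against -0.75, -0.90 and -0.77 in colon of flox mice. Its ileum levels were -0.27, -0.35, -0.32 and -0.32 in iKO mice, against -1.44, -1.69 and -1.64 in flox mice. Groups were tight and far apart in both tissues. Slc44a2 rose by 1.42 ± 0.09 in the colon (adjusted p = 1.24e-05) and by 1.28 ± 0.09 in the ileum (adjusted p = 2.82e-05), and the difference between these was 0.14 ± 0.12 (95% interval -0.12 to 0.41). A second probe that overlaps the first gave 1.41 and 1.31. Both calls held in all 29 alternatives, and within slides the gene differed by 1.31 to 1.64 in the colon and 1.35 in the ileum (iKO 2 minus flox 3). The overlap of the probes, on the plus strand at chr9:21231320-21231379 (A_51_P140331) and chr9:21231300-21231359 (A_52_P612518) of mm7, is why their first 30 bases are shown.
Slc44a2 A_51_P140331: ctagagaatctgtttgccaaacttcttgat
Slc44a2 A_52_P612518: ctggtttctttcacttgaaactagagaatc

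Wfdc15b, which by its sequence family encodes a small secreted protein of the protease inhibitor-like whey acidic protein group, was at -1.46, -1.69, -1.80 and -0.74 in colon of iKO mice, against -5.31, -5.36 and -4.45 in colon of flox mice. For the ileum, the levels were -1.35, -1.26, -2.14 and -1.56 in iKO mice, and -5.64, -4.85 and -5.77 in flox mice, none of them well above background. The iKO levels of the tissues were alike and flox levels were near or below background. Wfdc15b rose by 3.62 ± 0.33 in the colon (adjusted p = 0.000353), and in the ileum its iKO mean was at least 6.80-fold higher (fitted 3.84 ± 0.33, adjusted p = 0.000243). Its tissues differed by -0.22 ± 0.47 (95% interval -1.24 to 0.80). It kept both calls in all 28 alternatives that tested it, with 2.09 in the ileum under normexp.

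Nectin4 and Bnipl were also dim in flox ileum. Nectin4, an adhesion molecule of epithelial junctions, was at -1.86, -1.77, -2.20 and -2.47 in colon of iKO mice, against -4.23, -4.06 and -3.83 in colon of flox mice, and rose by 1.96 ± 0.24 (adjusted p = 0.00406). In ileum, levels were -4.49, -3.92, -3.92 and -3.89 in iKO mice, 3 of 4 well above background, and -5.98, -6.90 and -6.38 in flox mice, 0 of 3, which made the iKO mean at least 1.22-fold higher (fitted 2.36 ± 0.24, adjusted p = 0.000931). The ileum value was 0.75 with normexp (adjusted p = 0.0666), and a second Nectin4 probe gave 0.70 in the colon and 0.46 in the ileum. Bnipl, a relative of the BCL2-interacting protein BNIP2, was at -0.61, -0.29, -0.41 and -1.06 in colon of iKO mice, against -1.65, -2.68 and -2.55 in colon of flox mice. Those of the ileum were -3.25, -2.40, -2.86 and -2.64 in iKO mice, and -6.05, -6.25 and -6.06 in flox mice, all of these below background. Bnipl rose by 1.70 ± 0.27 in the colon (adjusted p = 0.0235) and was at least 2.94-fold higher in the ileum (fitted 3.33 ± 0.27, adjusted p = 0.000169), and its difference between tissues of -1.63 ± 0.38 was not called (adjusted p = 0.442) and was -0.06 with normexp. The colon call of Bnipl was lost without each of colon flox 3 and 4 and colon iKO 1, 2 and 3 (adjusted p = 0.0602 to 0.109).

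Hebp2 and Arhgap8 rose by similar amounts. Hebp2, a heme-binding protein, was at 1.69, 1.92, 1.27 and 1.40 in colon of iKO mice against 0.35, 0.17 and 0.08 in flox mice, a difference of 1.37 ± 0.21 (adjusted p = 0.0197). In the ileum it was at 0.26, 1.03, 0.74 and 0.66 in iKO mice against -0.71, -1.31 and -0.81 in flox mice, a difference of 1.62 ± 0.21 (adjusted p = 0.00764). Its colon call was lost without each of colon flox 3 and 4 and colon iKO 1 and 2 (adjusted p = 0.0521 to 0.0907). Arhgap8, a GTPase-activating protein, was at 2.21, 2.04, 1.63 and 1.71 in colon of iKO mice against 0.22, 0.97 and 0.39 in flox mice. Its ileum levels were 1.79, 2.01, 1.47 and 1.39 in iKO mice against 0.55, 0.07 and 0.37 in flox mice. The same levels were thus reached in both tissues, with differences of 1.37 ± 0.22 in the colon (adjusted p = 0.0243) and 1.34 ± 0.22 in the ileum (adjusted p = 0.0351), and 0.04 ± 0.31 between tissues (95% interval -0.64 to 0.71). Arhgap8 was called in both tissues without 4 of the 14 single arrays left out in turn: its colon call went without colon flox 1 or 4 or colon iKO 1 or 2, and its ileum call without ileum flox 3 or 4, ileum iKO 1, 2 or 4 or colon iKO 2 or 3 (adjusted p = 0.0504 to 0.115). It was not called in the ileum without the pair that stood apart (1.33, adjusted p = 0.0581).

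Genes of epithelial signalling and of the apical membrane were among the rest. Il17re, the receptor subunit for the epithelial cytokine interleukin 17C, was at 2.62, 2.82, 2.86 and 2.68 in colon of iKO mice against 1.89, 1.72 and 2.07 in flox mice, a rise of 0.85 ± 0.12 (adjusted p = 0.00978). Ileum arrays read 1.62, 1.68, 1.65 and 1.31 in iKO mice against 0.54, 0.62 and 0.44 in flox mice, a rise of 1.03 ± 0.12 (adjusted p = 0.00282). A dim second Il17re probe gave 0.83 in the colon and -0.51 in the ileum, neither called, and the colon call was lost without colon flox 3 (adjusted p = 0.0595). Of 15 settings other than single arrays, 3 ended its colon call (adjusted p = 0.0904 to 0.142). Its ileum call also ended in 3 of them (adjusted p = 0.0699 to 0.574), and the lowest ileum value was 0.26. Prss8, the membrane-bound protease prostasin that can activate the epithelial sodium channel, was at 1.64, 1.90, 1.62 and 1.87 in colon of iKO mice against 1.15, 0.89 and 1.16 in flox mice. Those of the ileum were 1.01, 1.18, 1.07 and 1.04 in iKO mice against 0.22, 0.60 and 0.17 in flox mice. The groups overlapped in neither tissue, and the rises were 0.69 ± 0.12 (adjusted p = 0.0394) and 0.75 ± 0.12 (adjusted p = 0.0351). Prss8 was the least secure of the 15: both calls held without 1 of 14 single arrays, colon flox 3 gave the highest adjusted p in the colon (0.191) and ileum flox 4 in the ileum (0.14), and neither call held without the pair that stood apart (0.69, adjusted p = 0.0768 in the colon; 0.66, adjusted p = 0.108 in the ileum).

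Plch2 and Osbpl5 act on membrane lipids. Plch2, a phospholipase C that cleaves phosphoinositides, was at 2.02, 2.12, 2.25 and 1.97 in colon of iKO mice against 0.66, 1.03 and 1.20 in flox mice, a rise of 1.13 ± 0.14 (adjusted p = 0.00579). On the ileum arrays its level was 1.58, 1.61, 1.41 and 1.21 in iKO mice against 0.63, 0.44 and 0.72 in flox mice, a rise of 0.86 ± 0.14 (adjusted p = 0.0351). Its ileum call was lost without 9 of 14 single arrays (adjusted p = 0.0548 to 0.0906), namely ileum flox 3 and 4, ileum iKO 1, 2 and 3, colon flox 3 and colon iKO 1, 2 and 3, and without the pair that stood apart (0.82, adjusted p = 0.0874). Osbpl5, a lipid transfer protein of the oxysterol-binding family, was at 3.1, 3.16, 3.29 and 3.15 in colon of iKO mice against 2.65, 2.64 and 2.65 in flox mice. Its ileum levels were 2.76, 2.92, 2.86 and 2.71 in iKO mice against 2.34, 2.08 and 2.09 in flox mice. These were the smallest rises of the 15, 0.53 ± 0.09 in the colon (adjusted p = 0.0303) and 0.64 ± 0.09 in the ileum (adjusted p = 0.0123), and groups were apart in both tissues. The Osbpl5 colon call was lost without ileum iKO 1 and without any 1 colon array (adjusted p = 0.0508 to 0.134), and its ileum call without ileum flox 4 (adjusted p = 0.0777). The remaining higher gene, 1700001O22Rik, was at -1.29, -1.33, -1.46 and -1.51 in colon of iKO mice against -2.45, -2.47 and -2.53 in flox mice. In the ileum it was at -2.77, -2.54, -3.01 and -2.82 in iKO mice against -4.01, -4.18 and -4.0 in flox mice, 1 of 3 well above background. It rose by 1.09 ± 0.11 in the colon (adjusted p = 0.00082) and by 1.28 ± 0.11 in the ileum (adjusted p = 0.000243, 0.72 with normexp), and with the mean over its probes neither was called (0.62 and 0.84).

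Fam126a and Hunk were the genes lower in both. Fam126a, whose product hyccin belongs to the complex that makes phosphatidylinositol 4-phosphate at the plasma membrane, was at -0.55, -0.68, -0.57 and -0.78 in colon of iKO mice against 0.44, 0.44 and 0.27 in flox mice. In ileum, levels were -0.80, -1.14, -1.36 and -1.04 in iKO mice against 0.01, -0.24 and 0.13 in flox mice. It fell by 1.03 ± 0.13 in the colon (adjusted p = 0.00735) and by 1.05 ± 0.13 in the ileum (adjusted p = 0.0076), and the colon call was lost without colon flox 3 (adjusted p = 0.0537). Hunk, a kinase related to AMP-activated protein kinase, was at 0.47, 0.62, 0.64 and 1.01 in colon of iKO mice against 1.47, 1.67 and 1.55 in flox mice. Those of the ileum were -0.34, -0.04, -0.49 and -0.54 in iKO mice against 0.39, 0.71 and 0.54 in flox mice. Hunk fell by 0.88 ± 0.15 (adjusted p = 0.0308) and by 0.90 ± 0.15 (adjusted p = 0.0351), with both calls kept without 3 of 14 single arrays. Its colon call went without any colon array but colon iKO 4 or without ileum flox 4 or ileum iKO 1, and its ileum call without ileum flox 3 or 4, ileum iKO 1, 3 or 4, colon flox 3 or 4 or colon iKO 1, 2 or 3 (adjusted p = 0.05 to 0.157 in the colon, up to 0.126 in the ileum).

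**Figure D3:**
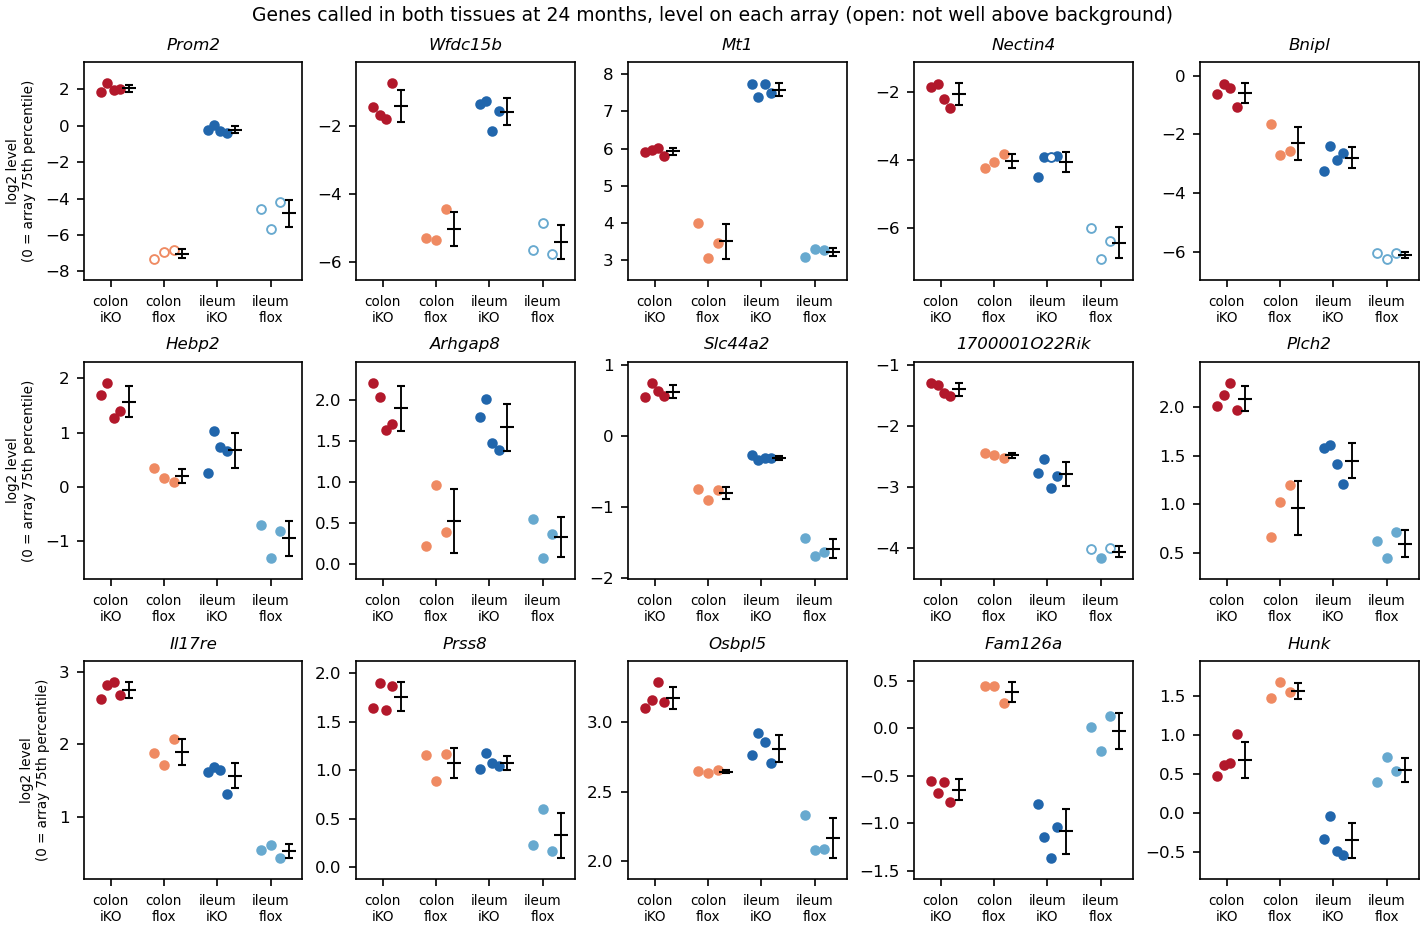
Level (log2, 0 is the 75th percentile of the array) of the 15 genes called in both tissues on each 24-month array, in the order colon iKO, colon flox, ileum iKO, ileum flox, with mean and SD as bars and open symbols where the probe was not well above background. In all 15 panels the iKO and flox points do not overlap in either tissue.

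For 12 of the 15 the 95% interval of the difference between tissues included 0, and the exceptions were Mt1, Prom2 and Bnipl. All 15 had the same direction on every slide that held both genotypes, which adds nothing, since groups that do not overlap must give it. The 15 also had the same sign in the ileum of young mice, on other arrays but on the same slides as the aged ileum. In a fit of the 8 young arrays alone 2 of the 15 were called. The shares over all genes are not given here, so both counts lack a background to be read against. Without any 1 of the 14 arrays in turn 6 of the 15 stayed called in both tissues: Mt1, Prom2, Slc44a2, Wfdc15b, Nectin4 and 1700001O22Rik. Mt1, Prom2, Slc44a2 and Wfdc15b did so in every alternative that tested them, including separate fits of the 7 arrays of each tissue. These alternatives took the brightest probe of a gene or the mean over its probes, and never a second probe alone. The second Prom2 probe, given above, had a negative value in the ileum and was not called there, so the ileum call of Prom2 rests on its brightest probe. With the pair of ileum arrays left out, 14 genes were called in both tissues, 12 of them among the 15, and Macrod2 and Mycn were added (chosen here after their values were seen).

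Tnni2, troponin I of fast skeletal muscle, was the clearest gene particular to the colon. It was at 1.23, 1.52, 1.39 and 0.72 in colon of iKO mice, against -1.57, -1.80 and -1.64 in colon of flox mice. The ileum values were -1.31, -0.54, -1.34 and -0.84 in iKO mice, against -1.10, -1.35 and -1.03 in flox mice. Every array was well above background, the 4 colon iKO arrays stood alone at the top, and the ileum groups overlapped. Tnni2 rose by 2.88 ± 0.22 in the colon (adjusted p = 7.01e-05), the ileum difference was 0.16 ± 0.22 (95% interval -0.32 to 0.63, adjusted p = 0.786), and the difference of differences was 2.73 ± 0.31 (95% interval 2.05 to 3.40, adjusted p = 0.00928). It was called without each of the 14 arrays in turn and without the pair that stood apart (2.85, adjusted p = 0.0147). With slide as a fixed factor it was 2.55 (adjusted p = 0.0836). Within slides Tnni2 differed by 2.29 to 3.32 in the colon and by 0.82 in the ileum. That ileum value is iKO 2, the highest ileum array and 1 of the pair that stood apart, minus flox 3. Its probe is printed with those of the unnamed transcripts, as the sequences that carry a colon difference.

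The other genes called in the colon and in the difference of differences had no measured level in the ileum. Rnf225, annotated as a ring finger protein, was at -4.41, -4.07, -4.47 and -4.13 in colon of iKO mice, and at -8.07, -8.01 and -6.94 in colon of flox mice, none well above background, so that its iKO mean was at least 4.30-fold higher. AK081257 was at -3.67, -3.58, -3.51 and -2.34 in colon of iKO mice, and at -8.83, -8.15 and -8.83 in colon of flox mice, again below background, which gave at least 8.57-fold. ENSMUST00000068976 ran the other way, at -8.43, -8.50, -8.33 and -8.51 in colon of iKO mice, none well above background, against -3.38, -3.67 and -4.26 in flox mice, and was at least 5.85-fold lower. In each case the groups of the colon were far apart, with 1 of them at background. Each of these genes passed the filter through its bright colon group alone. It was thus tested because of the group where it was high, and its calls are not independent of the filter.

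On the ileum arrays none of the 3 was well above background: Rnf225 lay between -6.5 and -5.33, AK081257 between -6.98 and -4.99 and ENSMUST00000068976 between -6.92 and -5.51. A difference in the ileum could therefore not be detected on these arrays. The fitted colon differences were 3.40 ± 0.29 for Rnf225 (adjusted p = 0.000208), 5.32 ± 0.45 for AK081257 (adjusted p = 0.000196) and -4.67 ± 0.30 for ENSMUST00000068976 (adjusted p = 1.68e-05). Their differences of differences were 3.04 ± 0.41 (adjusted p = 0.0306), 4.96 ± 0.64 (adjusted p = 0.0249) and -4.67 ± 0.42 (adjusted p = 0.00121). Under normexp, which compresses dim levels, these were 0.75, 1.79 and -1.43. Quantile normalization gave 3.75 for AK081257 (adjusted p = 0.383). Without single arrays in turn ENSMUST00000068976 was called 14 of 14 times. AK081257 was called 7 of 14 times, and lost without each of ileum flox 1, 3 and 4, ileum iKO 4, colon flox 1 and colon iKO 1 and 2 (adjusted p = 0.0522 to 0.0848). Rnf225 was called 2 of 14 times, without ileum iKO 3 and without colon flox 4 (elsewhere adjusted p = 0.0527 to 0.127), and it was not called without the pair that stood apart (2.83, adjusted p = 0.154).

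ENSMUST00000075276 was called in the difference of differences alone (1.13 ± 0.16, adjusted p = 0.0434), from 0.52 in the colon and -0.61 in the ileum, neither called. It was at -5.14, -4.81, -4.95 and -4.99 in colon of iKO mice against -5.51, -5.57 and -5.40 in flox mice. In the ileum it was at -5.46, -5.60, -5.62 and -5.86 in iKO mice against -4.85, -5.14 and -5.07 in flox mice, none of them well above background. The groups did not overlap, in opposite directions, but lay close to each other near background. The call was lost without each of the 14 arrays in turn (adjusted p = 0.0562 to 0.143). With the stricter filter of a probe well above background on all 14 arrays, Mt1 and Tnni2 were the 2 genes called.

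The probes of Tnni2 and of both unnamed transcripts with a large colon difference are given as the first 30 of 60 bases, 5′ to 3′, in lower case (build mm7). Tnni2 A_51_P355122 lies at chr7:138871616-138871675 on the plus strand, AK081257 A_52_P1100751 at chr13:91360096-91360155 on the minus strand and ENSMUST00000068976 A_51_P492701 at chr6:52229561-52229620 on the plus strand.
Tnni2 A_51_P355122: agcattggggaagcacccaacatccagtct
AK081257 A_52_P1100751: catttcccatggtattgtaagttctaaaat
ENSMUST00000068976 A_51_P492701: actgaggtgtaatcagattttacaggcacg

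The ENSMUST00000068976 probe lies 7176 and 7335 bases from the probes of Hoxa13 and 51708 bases from that of Evx1, at the end of a Hox cluster. Hoxa13, a homeobox gene of the hindgut, was at -4.03, -5.97, -5.71 and -6.19 in colon of iKO mice against -2.40, -2.61 and -2.74 in flox mice, and was not well above background on any ileum array. It fell by 2.89 ± 0.52 in the colon (adjusted p = 0.0394, -1.57 with normexp), with -2.37 at a second probe, and its difference of differences of -2.77 ± 0.74 was not called (adjusted p = 0.549). The colon call held without colon iKO 1 and without ileum flox 3 and was lost without each of the other 12 arrays (adjusted p = 0.0508 to 0.161) and without the pair that stood apart (adjusted p = 0.0768). Other Hox genes in colon of iKO mice did not pass: Hoxd10 was at -2.73, -2.36, -1.76 and -2.23 against -0.99, -0.97 and -1.20 in flox mice (-1.21 ± 0.48, adjusted p = 0.538). Hoxd11 was at -4.91, -4.82, -3.42 and -4.60 against -3.06, -3.31 and -3.32 (-1.21 ± 0.36, adjusted p = 0.291). Hoxb13 was at 3.56, 4.01, 3.72 and 2.12 against 4.06, 3.39 and 3.24, where the groups overlapped (-0.21 ± 0.43, adjusted p = 0.998). Over 18 Hox and regional factors measured, the median was -0.20 in the colon and -0.13 in the ileum, with 1 called lower in the colon. Hox genes vary along the gut, the labels do not give the part of the colon that was taken, and the part of position in these results was not tested.

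**Figure D4:**
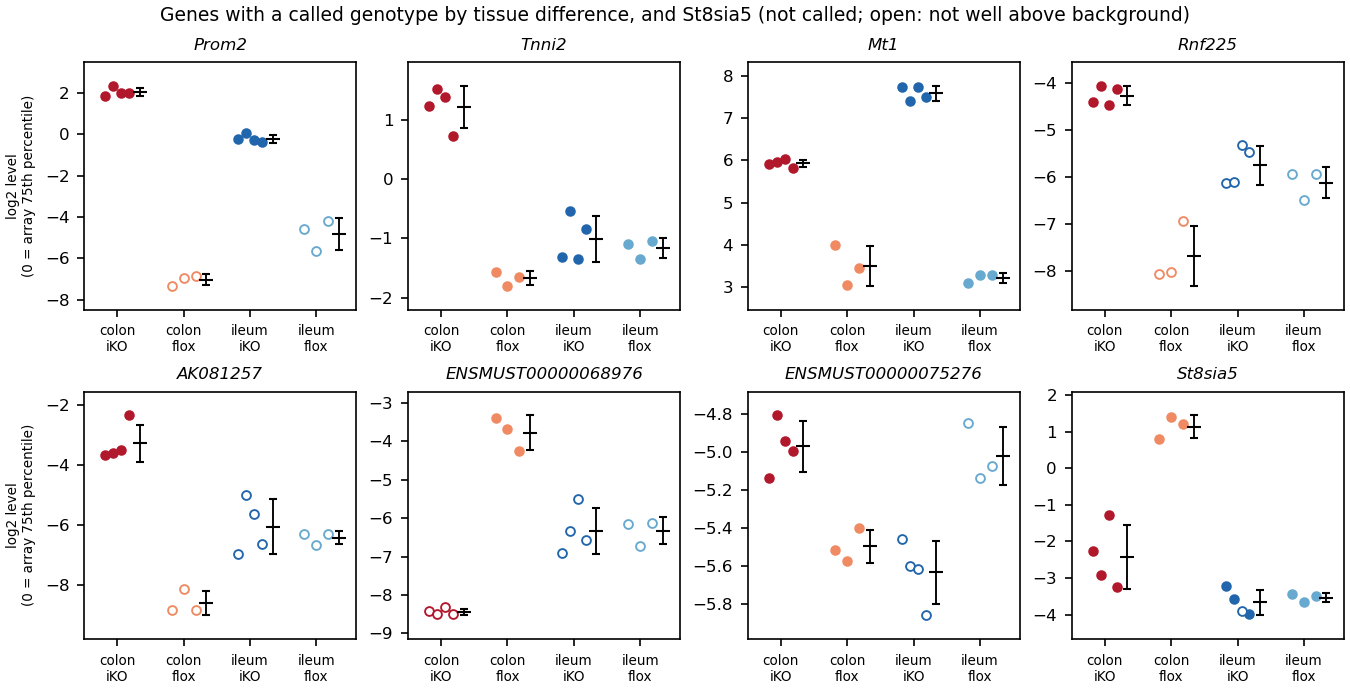
Level (log2, 0 is the 75th percentile of the array) of the 7 genes with a called difference of differences, and of St8sia5, which was not called, on each 24-month array, in the order colon iKO, colon flox, ileum iKO, ileum flox, with mean and SD as bars and open symbols where the probe was not well above background. Mt1 and Tnni2 have filled symbols throughout, whereas the ileum symbols of Rnf225, AK081257 and both ENSMUST transcripts are all open.

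Fewer than 5 genes were called with the colon value below the ileum value, so the next by p are given, none of them called. St8sia5, a sialyltransferase of gangliosides, was at -2.27, -2.91, -1.28 and -3.25 in colon of iKO mice, against 0.79, 1.39 and 1.22 in colon of flox mice. On the ileum arrays its level was -3.22, -3.58, -3.89 and -3.98 in iKO mice, against -3.43, -3.67 and -3.50 in flox mice. The colon groups were far apart and the ileum groups overlapped at a low level. St8sia5 fell by 3.56 ± 0.38 in the colon (adjusted p = 0.00137) and differed by -0.13 ± 0.38 in the ileum. Its difference of differences of -3.43 ± 0.53 missed the threshold (adjusted p = 0.0827) and passed without colon iKO 3 (adjusted p = 0.00355) and under normexp (-3.21, adjusted p = 0.0246).

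Npsr1, Pllp and Ift22 were called in the ileum, with differences between tissues that were not. Pllp, plasmolipin, a membrane protein of myelin and epithelia, was at 2.75, 3.14, 3.05 and 2.98 in colon of iKO mice against 2.95, 2.74 and 2.76 in flox mice, which overlapped. For the ileum, the levels were 1.81, 2.09, 1.96 and 1.94 in iKO mice against 1.14, 0.96 and 0.83 in flox mice, and rose by 0.97 ± 0.12 (adjusted p = 0.00453), with a difference between tissues of -0.81 ± 0.16 (adjusted p = 0.371). Ift22, a protein of transport along cilia, was at -1.09, -1.32, -1.33 and -1.24 in colon of iKO mice against -1.38, -1.12 and -1.18 in flox mice. Its ileum levels were 0.57, 0.31, 0.45 and 0.55 in iKO mice against -0.10, -0.40 and -0.23 in flox mice, a rise of 0.71 ± 0.11 (adjusted p = 0.0211), with -0.73 ± 0.15 between tissues (adjusted p = 0.409). The Ift22 ileum call was lost without each of ileum flox 3 and 4 and ileum iKO 1 and 4 (adjusted p = 0.0612 to 0.0882). Npsr1, the neuropeptide S receptor, had 1 of 4 iKO and 0 of 3 flox ileum arrays well above background, so no fold is given (fitted 1.44, adjusted p = 0.0306; 0.54 with normexp, adjusted p = 0.103).

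Among the 50 genes called in the colon alone with no called difference, 32 were well above background on all 14 arrays, and the 5 of them with the largest differences and a symbol are given, a choice made after values were seen. Abcg5, a subunit of the transporter that pumps sterols into the gut lumen and bile, was at 0.71, -0.36, 1.05 and -0.41 in colon of iKO mice against 2.28, 2.54 and 2.10 in flox mice. In the ileum it was at 6.03, 5.18, 5.63 and 5.63 in iKO mice against 4.97, 5.90 and 5.83 in flox mice. It was far higher in ileum than in colon, where it fell by 2.06 ± 0.36 (adjusted p = 0.0369), and it differed by 0.05 ± 0.36 in the ileum, with -2.11 ± 0.52 between tissues (adjusted p = 0.459). Plagl1, an imprinted zinc finger transcription factor, was at -0.48, -0.33, -0.74 and 0.16 in colon of iKO mice against -1.86, -2.44 and -1.51 in flox mice. It rose by 1.59 ± 0.23 in the colon (adjusted p = 0.0137), 0.82 with the mean over its probes (adjusted p = 0.411), and differed by -0.11 ± 0.23 in the ileum, with 1.70 ± 0.32 between tissues (adjusted p = 0.263; 0.0348 in a fit of all 22 arrays). Grpr, the gastrin-releasing peptide receptor, was at -0.30, -0.68, 0.23 and -0.93 in colon of iKO mice against -2.22, -1.99 and -1.54 in flox mice, and rose by 1.5 ± 0.25 (adjusted p = 0.0303) with 0.01 ± 0.25 in the ileum.

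Cysrt1 and Pla2g2f moved the same way in the ileum without passing there. Cysrt1 was at -1.88, -2.65, -3.43 and -3.28 in colon of iKO mice against -5.28, -5.31 and -4.39 in flox mice (2.18 ± 0.40, adjusted p = 0.0469), and at -1.33, -1.74, -1.52 and -0.79 in ileum of iKO mice against -3.73, -3.25 and -2.53 in flox mice (1.82 ± 0.40, adjusted p = 0.101). Pla2g2f, a secreted phospholipase A2, was at 0.36, 0.75, 0.67 and -0.38 in colon of iKO mice against -0.62, -1.71 and -1.43 in flox mice (1.60 ± 0.29, adjusted p = 0.0394), and at -0.43, -0.54, -0.44 and -0.35 in ileum of iKO mice against -1.30, -1.24 and -1.77 in flox mice (1.00 ± 0.29, adjusted p = 0.195). The groups of neither gene overlapped in either tissue. Leaving out single arrays ended the colon call of Pla2g2f and of Cysrt1 in 12 of 14 cases each, of Abcg5 in 11, of Grpr in 4 (colon flox 1 and 3, colon iKO 1 and 2) and of Plagl1 in 1 (colon flox 3), with adjusted p = 0.05 to 0.209. For Pla2g2f the exceptions were colon flox 1 and colon iKO 4, for Cysrt1 ileum flox 1 and 4, and for Abcg5 colon iKO 3, ileum flox 1 and ileum iKO 2. Without the pair that stood apart Cysrt1, Pla2g2f and Grpr were not called in the colon (adjusted p = 0.0715, 0.0884 and 0.0631, in that order).

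Among the 34 genes called in the ileum alone with no called difference, 19 were well above background on all 14 arrays. Ankrd22, an ankyrin repeat protein, was at 0.21, 0.76, 0.72 and 0.66 in ileum of iKO mice against -1.21, -1.65 and -1.69 in flox mice, a rise of 2.10 ± 0.28 (adjusted p = 0.0103), with 1.32 ± 0.28 in the colon (adjusted p = 0.107). Nrn1, neuritin, was at -2.24, -2.57, -2.20 and -1.98 in ileum of iKO mice against -3.46, -3.53 and -3.43 in flox mice, a rise of 1.23 ± 0.16 (adjusted p = 0.0103), with 0.75 ± 0.16 in the colon (adjusted p = 0.107). Both were positive in both tissues, and their colon groups did not overlap. Car4, a membrane-bound carbonic anhydrase of the epithelium, was at 3.44, 3.74, 3.96 and 3.98 in ileum of iKO mice against 2.94, 1.84 and 2.02 in flox mice, a rise of 1.51 ± 0.25 (adjusted p = 0.0351), with 0.40 ± 0.25 in the colon. Car4 is also a marker of colonic epithelium, and it stood at 3.74 on ileum iKO 2 and 2.94 on ileum flox 1, the arrays with colonic markers, and without both it stayed called, at 1.86.

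Tenm4 and Pcdh19, both adhesion proteins best known from neurons, were lower in the ileum. Tenm4 was at -2.80, -2.43, -2.98 and -2.94 in ileum of iKO mice against -1.33, -1.79 and -1.81 in flox mice, and fell by 1.15 ± 0.17 (adjusted p = 0.0229; -0.57, adjusted p = 0.264, with the mean over its probes), with -0.41 ± 0.17 in the colon. Pcdh19, on the X chromosome, was at -3.35, -3.51, -3.31 and -3.44 in ileum of iKO mice against -2.07, 0.73 and -1.18 in flox mice. The iKO arrays were level with all colon arrays (-3.6 to -3.32), and the flox ileum arrays alone were higher, with a wide spread. Pcdh19 fell by 2.56 ± 0.46 (adjusted p = 0.0481) and differed by 2.60 ± 0.65 between tissues (adjusted p = 0.475). Leaving out single arrays ended the ileum call of Pcdh19 in 12 of 14 cases (all but ileum flox 1 and 3), of Car4 in 10 (all but colon flox 1 and 4, colon iKO 4 and ileum flox 1), of Tenm4 in 4 (ileum flox 4, ileum iKO 1, 3 and 4) and of Ankrd22 in 1 (ileum flox 4), with adjusted p = 0.0514 to 0.14, and of Nrn1 in 0.

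Pathways and cell types were described over 38 gene lists by counts and medians, with no test. Mt1 was the 1 list member called in the difference of differences, where 0.0356% of all genes were called. Mt1, Il17re and Hoxa13 were the members called in the colon, and Mt1, Il17re and Car4 those called in the ileum. Among 16 metallothioneins and zinc transporters, Mt1 stood alone. Mt2, the neighbouring metallothionein gene, was at 4.21, 3.75, 3.58 and 2.10 in colon of iKO mice against 5.36, 3.76 and 3.87 in flox mice (-0.92 ± 0.63), and at 4.13, 3.00, 4.96 and 2.37 in ileum of iKO mice against 3.22, 3.08 and 3.32 in flox mice (0.41 ± 0.63). Mt2 groups overlapped in both tissues and its difference of differences was not called (-1.33 ± 0.90, adjusted p = 0.837). In the interleukin 17 pathway Il17re was the 1 called of 10 measured in each tissue, where 0.351% of all genes were called in the colon and 0.249% in the ileum. The list medians were 0.17 in the colon (0.42 without colon flox 4) and 0.10 in the ileum (0.03 without ileum iKO 4).

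Several lists had members on 1 side of 0 in the difference of differences, with 0 called other than Mt1, against an all-gene median of -0.03. Of 19 enteroendocrine markers measured 19 were positive, with medians of 0.10 in the colon, -0.36 in the ileum and 0.48 for the difference, and -0.05 in the colon without colon flox 3. Insl5, a peptide hormone of colonic enteroendocrine cells, was at 4.27, 5.28, 4.34 and 3.53 in colon of iKO mice against 3.87, 2.94 and 3.04 in flox mice, and at -2.36, -2.69, -2.82 and -2.65 in ileum of iKO mice against -2.13, -0.65 and -0.82 in flox mice. Its colon groups overlapped and its ileum groups did not, and the difference of differences was 2.50 ± 0.59 (adjusted p = 0.447). Of 12 goblet cell markers 12 were positive, with medians of 0.23, -0.01 and 0.30 and a difference of 0.17 without colon flox 3. Among them Clca1, a secreted mucus protein, differed by 0.42 ± 0.15 in the colon and -0.20 ± 0.15 in the ileum. Of 18 genes of cholesterol and fatty acid synthesis 16 were positive (0.30, -0.01 and 0.31), among them Lss, lanosterol synthase, at 0.69 ± 0.24 in the colon and -0.01 ± 0.24 in the ileum; without colon flox 4 the difference for this list was 0.08. Of 23 xenobiotic and conjugation enzymes 18 were positive, with medians of -0.49 in the colon, -0.92 in the ileum and 0.51 for the difference, which was 0.22 with slide as a fixed factor.

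Lists on the other side of 0 included those of the cell cycle, respiration and lymphocytes. Of 23 cell cycle genes 3 were positive in the difference of differences, with a median of -0.17, which was 0.14 without colon flox 1. Of 12 B and plasma cell markers 4 were positive, with a median of -0.33. That median ran between -0.54 and 0.47 over settings other than single arrays left out. Of 24 interferon response genes 8 were positive, with a median of -0.09. Of 23 genes of oxidative phosphorylation 0 were positive in the difference of differences, with medians of -0.07 in the colon, 0.15 in the ileum and -0.16 for the difference. Ndufs1, a subunit of respiratory complex I, was at 4.46, 4.43, 4.53 and 4.59 in colon of iKO mice against 4.72, 4.74 and 4.63 in flox mice, and at 4.58, 4.85, 4.57 and 4.59 in ileum of iKO mice against 4.57, 4.19 and 4.01 in flox mice (difference -0.58 ± 0.18, adjusted p = 0.625). Of 15 T and intraepithelial lymphocyte markers 0 were positive in the difference, 2 in the colon and 15 in the ileum, with medians of -0.65, -0.15 and 0.48. Their summed level, in multiples of the array's 75th percentile, was 2.85 to 4.06 in colon of iKO mice, 3.07 to 4.18 in colon of flox mice, 14.5 to 42.6 in ileum of iKO mice and 13.8 to 26.1 in ileum of flox mice, so groups overlapped in each tissue. The ileum median was 0.19 without ileum flox 3 and 0.10 with slide as a fixed factor.

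Connective tissue and muscle markers were lower in iKO ileum on most members, with 0 called. Of 15 fibroblast and matrix genes 14 were positive in the difference of differences, with medians of -0.03 in the colon, -0.51 in the ileum and 0.47 for the difference. Col6a1, a chain of collagen VI, was at 0.48, 0.07, 0.14 and 0.25 in colon of iKO mice against -0.07, 0.06 and 0.06 in flox mice, and at -0.19, -0.47, 0.26 and -0.25 in ileum of iKO mice against 0.75, 0.54 and 0.46 in flox mice (difference 0.97 ± 0.22, adjusted p = 0.442). The summed level of the list was 73.5 to 88.4 in colon of iKO mice, 85.2 to 91.5 in colon of flox mice, 53 to 86.7 in ileum of iKO mice and 78.0 to 107 in ileum of flox mice. Of 12 smooth muscle genes 12 were positive, with medians of 0.02, -0.27 and 0.25. The difference for the smooth muscle list was 0.16 without colon iKO 1, and its ileum median -0.15 without ileum iKO 1. The fibroblast list's difference was 0.31 without ileum flox 1. Summed levels of the fibroblast and lymphocyte lists overlapped between the ileum groups, and the part of these lists in the ileum calls was not tested.

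Further lists are given by their medians in each tissue. Of 24 interferon response genes 21 were positive in the colon and 24 in the ileum, with medians of 0.28 and 0.42. The colon median was -0.02 without colon iKO 2, and the ileum median 0.19 with slide as a fixed factor. Of 23 cell cycle genes 19 were positive in the colon and 23 in the ileum (0.11 and 0.26; -0.14 in the colon without colon flox 4). Of 19 genes of epithelial antimicrobial defence 11 were positive in the colon and 16 in the ileum, with medians of 0.19 in the colon and 0.76 in the ileum. Those medians were -0.07 in the colon without colon iKO 2 and 0.21 in the ileum with slide as a fixed factor. Saa1, an acute phase protein made by the epithelium, was at 7.61, 6.91, 7.25 and 6.23 in colon of iKO mice against 7.78, 7.71 and 7.43 in flox mice, and at 6.15, 7.21, 8.10 and 7.85 in ileum of iKO mice against 7.36, 4.94 and 4.13 in flox mice. Its high flox ileum value was on ileum flox 1, 1 of the arrays with colonic markers, and Saa1 was not called (difference -2.49 ± 0.94, adjusted p = 0.793). Of 19 colonic epithelium markers 5 were positive in the colon and 7 in the ileum, with medians of -0.47 and -0.12 and -0.09 for the difference, which was -0.78 without ileum flox 1. Over the other settings the difference for this list ran between -0.65 and 0.61 and its colon median between -0.90 and 0.40, so it has no settled direction. Markers of adipose and pancreatic tissue, which lie against the gut wall, had medians of 0.36 in the colon, -0.56 in the ileum and 1.25 for the difference, with 10 of 11 measured members positive and 0 called. Their summed level was 17.9 to 57.5 in colon of iKO mice, 26.1 to 39.8 in colon of flox mice, 21.4 to 34.5 in ileum of iKO mice and 31.8 to 135 in ileum of flox mice. The groups overlapped in both tissues, the colon median was -0.10 without colon iKO 1 and the ileum median 0.02 without ileum flox 1, and the part of this list in the results was not tested.

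**Figure D5:**
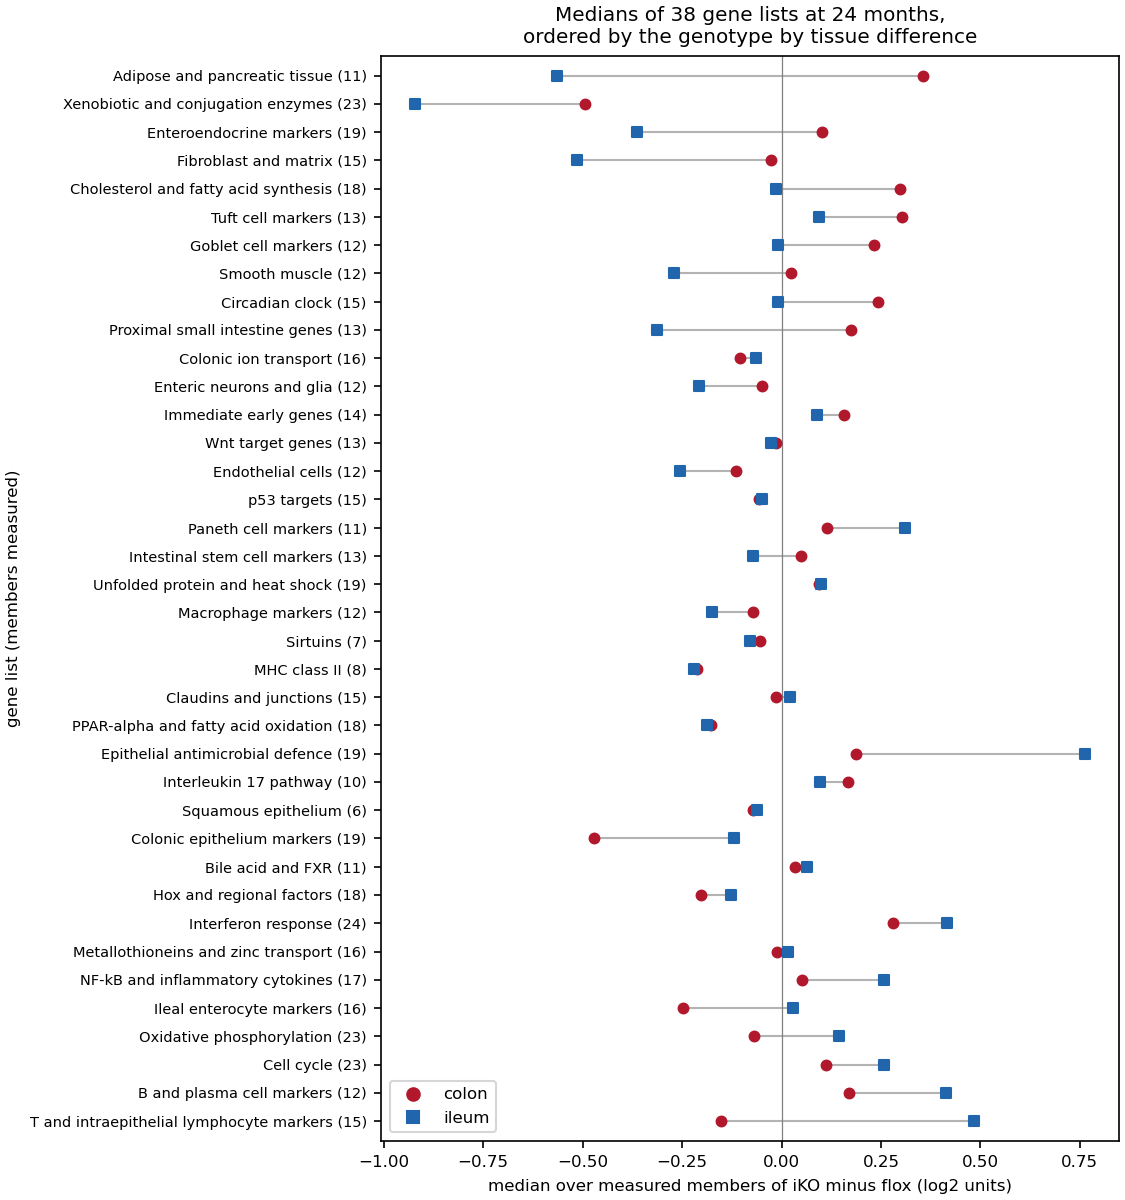
Median difference iKO minus flox (log2 units, x axis) over the measured members of each of 38 gene lists (y axis, members measured in brackets), circles for colon and squares for ileum, ordered by the median difference of differences. Enteroendocrine, fibroblast and smooth muscle lists have the colon to the right of the ileum, and the lists of T and intraepithelial lymphocytes and of oxidative phosphorylation have it to the left.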

How the data were processed

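Total RNA of whole colon and ileum was labelled with Cy3 and hybridised to 1-colour Agilent arrays. The deposited intensity of each spot is Agilent Feature Extraction 9.5 processed signal, background-subtracted and detrended within each array, with no scaling between arrays, per the file headers. From it, log2 values of the deposited intensity were taken minus each array's 75th percentile. A gene was its brightest probe, tested where well above background (the deposited flags of other kind, per the file headers) on every array of at least 1 group. Differences came from limma 3.58.1 in R 4.3.3 (group means, lmFit and eBayes), with Benjamini-Hochberg adjustment over 19650 genes.

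Genes were named through RefSeq's table (GRCm38.p6, names only): an accession named 22951 of 41174 probes, a current symbol 6659 and an older symbol 3109, while 8455 have the array's own name. No pair of the 22 arrays held identical values.

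The members, the gene lists and the tests were chosen with earlier results of these data known. Named genes are Sirt1, up to 12 called per direction for the difference of differences, or the 5 smallest p where fewer than 5 were called, up to 15 called in both tissues, up to 8 per tissue and direction called there and in the difference, and up to 3 per list with the smallest p. Tissue markers, transcripts without a symbol and genes called in 1 tissue were added after values were seen. Alternatives changed normalization, background correction (normexp, offset 50), filter, probe choice, arrays, slide and replicate number. The methods were tested on simulated data.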

Additional observations from a re-analysis of the deposited data

Results flagged for a closer look

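The difference of differences was called by limma for 7 genes: Prom2 (4.47), ENSMUST00000068976 (-4.67), Tnni2 (2.73), AK081257 (4.96), Mt1 (-1.94), Rnf225 (3.04) and ENSMUST00000075276 (1.13). Tnni2 and Mt1 were well above background on all 14 arrays. For the other 5 the value rests on levels below background and does not show that the iKO effect differs between tissues. Among them Rnf225, AK081257 and ENSMUST00000068976 passed the filter only through the colon group where each was high.

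In 4 of 72 groups of 4 arrays, 1 array lay far from the others, by a gap over range above Dixon's 95% critical value, and chance gives about 1 in 20 such groups. The gap over range was 0.875 for AK081257 in colon of iKO mice, where iKO 4 was highest. It was 0.956 for Nectin4 in ileum of iKO mice, where iKO 1 was lowest, and 0.841 for Il17re there, where iKO 4 was lowest. For Npsr1 in ileum of iKO mice it was 0.908, where iKO 2 was lowest.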

How the results depend on the processing

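Counts are given for the difference of differences, colon, ileum and both tissues, which were 7, 69, 49 and 15. Counts within 1.5 times of these came from quantile normalization, normexp, the mean over probes, each probe alone, array weights and slide as a random block. With no filter on dim probes the first 3 were 4, 34 and 23, and with probes well above background on all 14 arrays the difference of differences had 2. Trended and robust eBayes gave 87 in the ileum, and all 22 arrays 106 in the colon. Slide as a fixed factor gave 3 for the difference of differences, 6 in the ileum and 6 in both. Separate fits of 7 arrays gave 22, 9 and 4 for colon, ileum and both. Without ileum flox 1 and iKO 2 the ileum had 85 (46 higher, 39 lower) and the difference of differences 10, 4 of them among the 7.

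Leaving out single arrays gave 3 to 11 for the difference of differences, 21 to 67 in the colon, 19 to 151 in the ileum and 7 to 16 in both. The highest ileum count came without ileum flox 1 and the lowest without ileum iKO 4 (19), and 20 to 26 came without ileum flox 4 (23), ileum iKO 1 (20) and colon iKO 1, 2 and 3 (26, 25 and 26). The colon had 21 to 41 without colon flox 3 (21) or 4 (41) or colon iKO 1, 2 or 3 (31, 36 and 39), and both tissues 7 to 9 without these. The difference of differences had 11 without colon flox 4, and 3 or 4 without colon flox 1, colon iKO 1, 2 or 4, ileum flox 3 or 4 or ileum iKO 1 or 4.

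Residuals of the same replicate number correlated between -0.03 and 0.12 across tissues, 1 of 7 above 0.1. Those of different numbers within a genotype correlated between -0.10 and 0.10. With so few arrays per group, this does not settle whether colon and ileum came from the same mice. With the number within genotype as a fixed replicate block 0 genes had a limma call for the difference of differences, with 1157 at an unadjusted p under 0.05, and as a random block 7. With the number alone as a fixed block the 4 counts were 3, 19, 17 and 6.

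Over single genes, 1773 alternative values kept direction and side of the threshold, 372 lost the call, 4 gained it and 1 reversed: the difference of differences of Cysrt1, not called, was 0.36, -0.072 with the mean over probes and 0.043 to 0.66 without single arrays. Depth limits ileum statements on dim genes, since fewer probes there were above background.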
